A study of Mus musculus with 12 samples.

Results

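The transcriptomes of 4T1 tumours from mice that received extracellular vesicles (EVs) carrying miR-142-5p were compared with those from mice that received EVs carrying miR-222-3p. The comparison was chosen from the sample labels alone and took 6 of the 12 tumours of the series, 3 per group. 4T1 is a mammary carcinoma cell line of BALB/c origin, and 100000 cells had been injected under the skin of 1 flank in BALB/c females aged 6 to 8 weeks. From day 5 the mice were injected around the tumour every 2 days with 3 µg of EVs, and RNA was taken from the tumours on day 21. The EVs came from cultured mouse endothelial cells of the MS-1 line and had been loaded with microRNA mimics by electroporation, so both groups received vesicles, and no group of untreated mice or of mice given unloaded EVs was analysed here. The ctrl group (3 tumours) received EVs with a nematode microRNA, miR-67, and is used here to place both treatments on a common scale, with a test given for Mdn1. The other 3 tumours came from mice given EVs with miR-183-5p. The ctrl and miR-183-5p tumours also entered the count filter, the estimate of the spread and the search for libraries that stand apart. The labels number the samples within a group and do not say whether each came from a mouse of its own, so the p-values measure the spread between these samples.

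MicroRNAs are short RNAs that guide Argonaute proteins to messenger RNAs, mostly through pairing of the seed, bases 2 to 8, with the 3′ untranslated region (UTR), and lower the level or the translation of the messenger. miR-142-5p comes from a hairpin whose expression is restricted largely to blood-forming cells, and miR-222-3p from a hairpin active in endothelial and many tumour cells. The study asked how EVs with either microRNA act on tumour macrophages. The mature sequences are shown with the seed in capitals because the seed matches discussed further on were derived from them (RefSeq, GRCm38.p6). The miR-142-5p sequence lies on chromosome 11, 87756867 to 87756887, plus strand, and that of miR-222-3p on chromosome X, 19146901 to 19146923, minus strand.
miR-142-5p: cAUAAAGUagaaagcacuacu
miR-222-3p: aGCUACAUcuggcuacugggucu
The strings searched for in UTRs were ACTTTAT for miR-142-5p and ATGTAGC for miR-222-3p.

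Each of the 6 libraries held between 20490870 and 26969322 estimated reads, and 15459 genes that reached 10 reads in 3 or more of the 12 libraries were kept. Of 15413 genes with an adjusted p-value, 6 passed the threshold of 0.05 (0.0389%) in DESeq2's Wald test, all higher in miR-142-5p tumours. None of the 6 was a protein-coding gene: every one was annotated as a pseudogene. At an unadjusted p under 0.05 there were 335 genes higher in miR-142-5p tumours (2.17%) and 219 lower (1.42%). The quasi-likelihood test of edgeR passed 0 genes after adjustment and 522 before it. The median log2 fold change of all genes, miR-142-5p over miR-222-3p, was 0.0042 and the median size of the change 0.117, and 50.97% of genes were higher in miR-142-5p tumours. In 449 genes (2.9%) every miR-142-5p tumour lay above every miR-222-3p tumour, and in 509 (3.29%) every one lay below. The count of 6 depended on single libraries. It was 72 without miR-142-5p tumour 1, 22 without miR-142-5p tumour 2, 2 without miR-142-5p tumour 3 (0.0129% of 15447) and 3 without miR-222-3p tumour 3. The genes that passed without miR-142-5p tumour 1 or 2 included protein-coding ones, such as the B cell genes Cd79a and Pax5. A fit to the 6 libraries alone passed 15 genes, 5 higher and 10 lower in miR-142-5p tumours. Dusp23, Zrsr1, Rps12, Vmn1r13 and Gm20547, all lower, were the protein-coding genes among these 15.

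**Figure D1:**
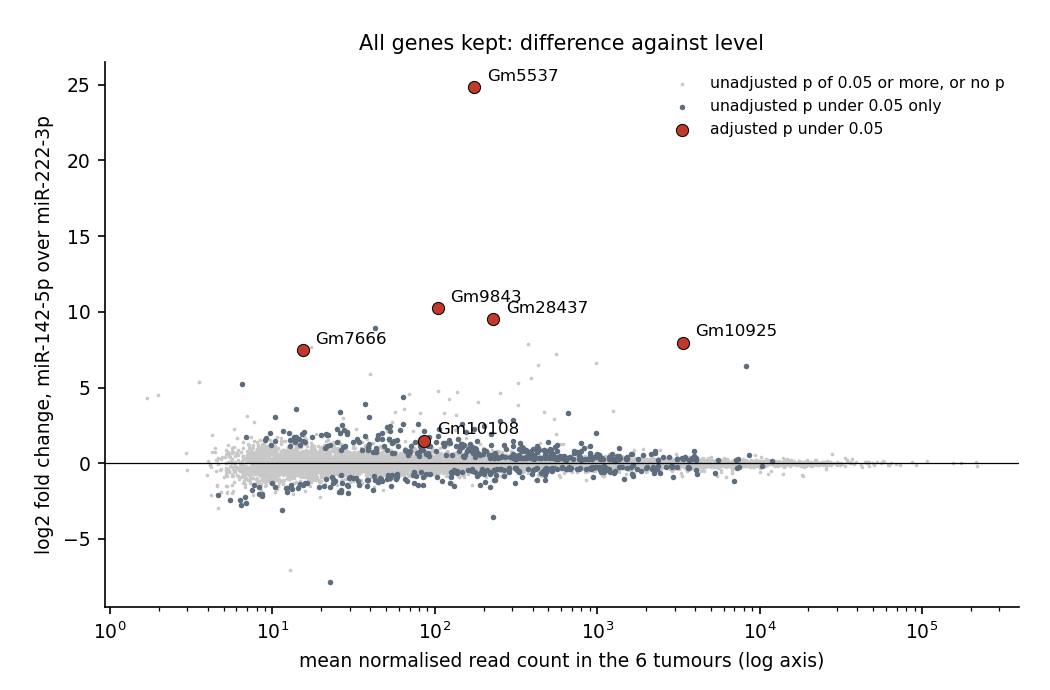
Log2 fold change (miR-142-5p over miR-222-3p, vertical axis) against the mean normalised read count of the 6 tumours (horizontal log axis), 1 point per gene. The 6 genes past an adjusted p of 0.05, in red, are Gm5537, Gm9843, Gm28437, Gm10925, Gm7666 and Gm10108, while most genes lie close to 0. The fitted values of Gm5537, Gm9843 and Gm7666, which had no reads in miR-222-3p tumours, are not estimates of a fold.

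Each of the 6 pseudogenes had a nearly identical protein-coding copy with far more reads. Aligned to the annotated transcripts, Gm5537 matched Pgk1, the glycolytic phosphoglycerate kinase, over 1252 bases without a mismatch. Gm9843 matched Fau, which encodes a ubiquitin-like fusion with ribosomal protein eS30, over 402 bases without a mismatch. Gm10108 matched Cycs, the gene of somatic cytochrome c, over 319 bases at 99.37%, and Gm7666 matched the mitochondrial scaffold gene Phb over 819 bases at 99.88%. Gm10925 and Gm28437 lie side by side on chromosome 1, 24613974 to 24614651 and 24613189 to 24613971 (GRCm38), and matched mt-Atp6 and mt-Co3 of the mitochondrial genome over 678 and 783 bases, again without a mismatch. Reads that fit both members of such a pair are shared out by the quantification, so that the value of a pseudogene is uncertain.

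The only base in which Gm7666 and Phb differed in the aligned stretch was A231G, counted from the first base of the Gm7666 transcript with the base of Phb first. The stretch around it shows what a read must cover to tell them apart, with that base in capitals.
Gm7666: ccacggaacgtaccGgtcatcactggtag
Phb: ccacggaacgtaccAgtcatcactggtag
Gm7666 had 25.5, 35.6 and 31.3 normalised reads in miR-142-5p tumours 1 to 3, 0 in every miR-222-3p tumour and 12.7 to 46.1 in ctrl tumours. Against a floor of 3 reads per library these estimates were at least 11-fold higher in miR-142-5p tumours (adjusted p = 0.000237). That bound takes the sharing out of reads with Phb as given. The copy Phb lay between 1734 and 2267 normalised reads in miR-142-5p tumours and between 2037 and 2494 in miR-222-3p tumours, with a log2 fold change of -0.11 (SE 0.16, adjusted p = 0.9999).

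The mitochondrial pair showed the same layout. Gm28437 had 202, 613 and 561 normalised reads in miR-142-5p tumours, 0.931, 1.01 and 0 in miR-222-3p tumours, and 576 to 1444 in ctrl tumours. The ratio of summed reads, corrected for library size, was 752, with an exact 95% interval of 208 to 6220 that covers counting error only (adjusted p = 0.000486). The interval takes as given how reads were shared out with the identical mt-Co3, so it does not bound a difference in expression. Gm10925 had 5503, 10683 and 3893 normalised reads against 41.0, 34.2 and 5.23, a log2 fold change of 7.96 (SE 1.69, adjusted p = 0.00957). The ctrl tumours had 4004 to 14866 normalised reads of Gm10925, so in both genes the miR-222-3p tumours were below the miR-142-5p and ctrl tumours. Such low values were not particular to miR-222-3p tumours, since Gm28437 had 352, 494 and 0.01 estimated reads in the miR-183-5p tumours. A further neighbour, Gm28661, identical to mt-Co2 over 681 bases and named here after its values were seen, had 6989, 23750 and 18435 against 288, 290 and 0.872 but did not pass (adjusted p = 0.184). In DESeq2 it passed in the fit of the 6 libraries alone (adjusted p = 0.0464) and with the replicate number as a block (adjusted p = 0.0498).

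Gm9843 had 3.34, 141 and 485 normalised reads in miR-142-5p tumours, 0 in miR-222-3p tumours and 169 to 186 in ctrl tumours. Its estimated reads were at least 76.6-fold higher on the mean of the miR-142-5p group (adjusted p = 0.0421). That bound takes the split with the identical Fau as given and does not hold for tumour 1. Gm5537 had 0, 0 and 1050 against 0 in every miR-222-3p tumour, so its adjusted p of 7.49e-05 rested on miR-142-5p tumour 3 alone. Gm10108 had the smallest difference of the 6, at 119, 129 and 133 against 31.7, 61.7 and 42.1, a log2 fold change of 1.49 (SE 0.35, adjusted p = 0.0421), and its groups did not overlap. The protein-coding copies Pgk1, Fau and Cycs had log2 fold changes of -0.18, 0.04 and -0.18, none past the threshold. When the reads of Gm28661, Gm10925, Gm28437, Gm7666 and Gm5537 were added to those of their copies, 0 genes passed and 549 had an unadjusted p under 0.05. When Gm9843 and Gm10108 were joined to their copies as well, 0 passed and 547 had an unadjusted p under 0.05.

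The opposite layout was seen once. Gm10146, a pseudogene identical to the splicing and decay factor gene Lsm7 over 309 bases, had 0 reads in miR-142-5p and ctrl tumours and 64.2, 56.5 and 14.5 normalised reads in miR-222-3p tumours (adjusted p = 0.753, and singled out after its values were seen). In DESeq2 it passed in the fit of the 6 libraries alone (adjusted p = 7.86e-05), and at 0.00324 when miR-142-5p tumour 3 was also left out. The miR-183-5p tumours had 56.1, 0 and 30.9 estimated reads of Gm10146, so that a further group held both states. Of all genes kept, 2 had at least 10 reads in every miR-142-5p tumour and fewer than 3 in every miR-222-3p tumour, namely Gm7666 and Gm28437, and Gm10146 was the 1 gene with the reverse. No protein-coding gene was on in one group and off in the other by this measure.

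**Figure D2:**
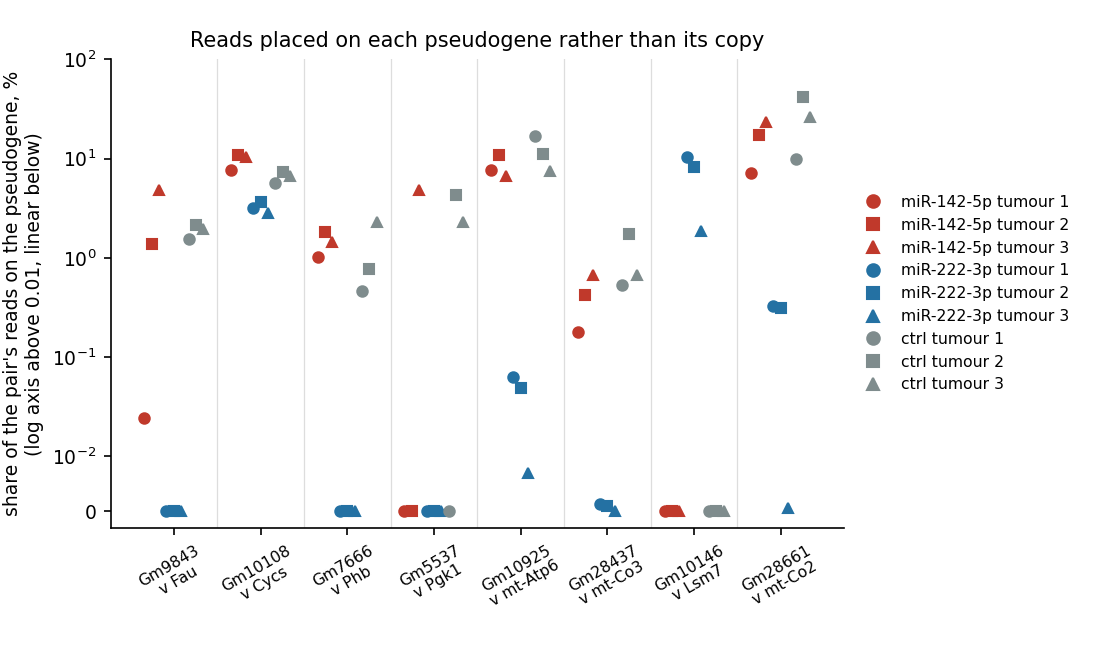
Share of the reads of each pseudogene and copy pair that were placed on the pseudogene (vertical axis in percent, logarithmic above 0.01 and linear below), 1 point per tumour for miR-142-5p, miR-222-3p and ctrl. For Gm28661 and mt-Co2 the share was 7.13% to 23.5% in miR-142-5p tumours, at most 0.324% in miR-222-3p tumours and 9.88% to 41.8% in ctrl tumours, and Gm10146 is the 1 pair with the order reversed.

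miR-142-5p tumour 3 held far more RNA of lymphoid marker genes than the other tumours. In that library 77 genes were at least 4-fold above each of the other 11 libraries, against 0 to 1 in the other 5 libraries compared and 21 in miR-183-5p tumour 3, and 28 of the 77 belonged to the lists of lymphoid, dendritic or lymphatic markers. Another 86 genes had at least 50 reads in this tumour but were removed by the count filter, against at most 2 in any other of the 6 libraries and 30 in miR-183-5p tumour 3. The 14 B cell markers that were kept were all highest in this tumour, and so were 26 of 27 T cell markers. The same held for 7 of 11 dendritic and 5 of 16 cytotoxic T and NK cell markers. It held for 1 of 15 endothelial, 0 of 18 macrophage and 0 of 14 neutrophil markers. The shares of all genes that were in these lists, or highest in this tumour, were not computed. In bulk tumour RNA, more cells of a type and more RNA per cell cannot be told apart. The plot of list medians therefore shows each cell type list with and without it.

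The B cell markers summed to 44.4, 68.7 and 2558 TPM (transcript abundance scaled to the same total in each library) in miR-142-5p tumours 1 to 3 and to 91.1, 97.4 and 73.2 in miR-222-3p tumours. Cd79a, a signalling chain of the B cell receptor, had 4.43, 11.2 and 2556 normalised reads against 15.8, 8.05 and 5.23. Pax5, the transcription factor that holds B cell identity, had 14.3, 12.0 and 2227 against 6.52, 1.41 and 1.84. The light chain constant gene Igkc stood at 55.5, 101 and 6770 against 153, 292 and 189, and the heavy chain gene Ighm at 264, 413 and 4044 against 372, 510 and 317. In each of these the high value was that of tumour 3 alone. For Cd79a and Ighm, tumours 1 and 2 lay among or near the miR-222-3p tumours. They lay above them for Pax5 and below them for Igkc, with log2 fold changes without tumour 3 of 1.98 and -1.43. Of the 22 listed B cell genes, 8 were below the count filter. Among them, Pou2af1, a B cell transcriptional co-activator, had 2, 5 and 3825 estimated reads against 4, 4 and 6.

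DESeq2 gave no p-value to 46 genes in which a single library was far from the rest, and 34 of these were highest in miR-142-5p tumour 3. Only 7 of the 14 B cell genes kept therefore had a p-value, and none passed after adjustment. Blnk, an adaptor below the B cell receptor, came first with a log2 fold change of 1.90 (SE 0.61, unadjusted p = 0.00165, adjusted p = 0.722) from 101, 139 and 807 normalised reads against 131, 71.7 and 77.4. Cxcr5, the receptor that leads B cells into follicles, followed at 4.397 (SE 1.55, adjusted p = 0.912). Without tumour 3 these values were 0.36 for Blnk and -0.56 for Cxcr5. The median log2 fold change of the B cell list was 3.38 with all tumours and -0.25 without tumour 3, and the number of members higher in miR-142-5p tumours went from 14 to 4. Without tumour 1 of the miR-142-5p group, which leaves tumour 3 as 1 of 2, 7 of the 14 passed, Blnk among them at 2.34 (adjusted p = 0.0186), and so did Ccr7, Ccl22 and Eomes.

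Genes of lymphoid organ stroma and of high endothelial venules, the vessels through which lymphocytes enter lymph nodes, followed the same tumour. The list summed to 23.2, 39.7 and 818 TPM in miR-142-5p tumours and to 41.9, 21.7 and 24.6 in miR-222-3p tumours. Glycam1, a ligand of L-selectin made by these venules, had 0, 0 and 2008 estimated reads against 0 in every miR-222-3p tumour. Ccl19, a chemokine for T cells and dendritic cells, had 2, 0 and 767 against 0, and Cxcl13, the chemokine of B cell follicles, had 0, 0 and 626 against 0, 1 and 3. Ccl21a was also high in this tumour alone, with 77.4, 0 and 3265 normalised reads against 0, 22.1 and 0. The summed TPM of lymphatic endothelial markers, among which Ccl21a was counted again, was 17.9, 4.55 and 325 against 5.49, 13.3 and 11.8. Prox1, the defining transcription factor of lymphatic endothelium, had 21 estimated reads in tumour 3 and at most 5 in the other 5 tumours. Whether lymphoid tissue next to the tumour was taken with this sample was not tested.

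T cell markers summed to 141, 199 and 717 TPM in miR-142-5p tumours and to 220, 212 and 126 in miR-222-3p tumours. With all tumours, the list had a median log2 fold change of 1.04, all 27 members kept were higher in miR-142-5p tumours, and 14 had an unadjusted p under 0.05 against 2.17% of all genes. Without tumour 3 the median was -0.06, 12 of 27 were higher and 0 had an unadjusted p under 0.05. Trbc1, a constant gene of the T cell receptor, had 197, 184 and 723 normalised reads against 178, 210 and 102, a log2 fold change of 1.17 (SE 0.45, adjusted p = 0.960) that was 0.22 without tumour 3. Icos, a co-stimulatory receptor of activated T cells, had 70.1, 111 and 289 against 84.4, 60.7 and 64.7. Cd8a, the co-receptor of cytotoxic T cells, had 412, 536 and 906 against 622, 601 and 311, with groups that overlapped.

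The lists of cytotoxic and dendritic cells kept a median above 0 without tumour 3. The cytotoxic T and NK cell markers summed to 191, 255 and 258 TPM against 259, 206 and 137, and their median log2 fold change was 0.23 with tumour 3, 0.14 without it and 0.03 without miR-222-3p tumour 3. Eomes, a transcription factor of effector lymphocytes, had 45.2, 103 and 203 normalised reads against 47.1, 37.4 and 47.1 (log2 fold change 1.42, SE 0.48, adjusted p = 0.822, and 0.75 without tumour 3). Of 11 dendritic cell markers kept, all were higher in miR-142-5p tumours, and 9 were so without tumour 3, where the median went from 0.69 to 0.20. The smallest change was 0.01. Their summed level did not separate the groups, at 886, 722 and 741 TPM against 624, 808 and 843 for the 12 listed genes. Clec9a, a receptor for dead cells on cross-presenting dendritic cells, had 72.8, 75.4 and 84.7 normalised reads against 45.4, 29.5 and 19.5. Its groups did not overlap, and its log2 fold change was 1.31 (SE 0.45, adjusted p = 0.882) with tumour 3 and 1.24 without. Ccr7, which guides dendritic cells and naive lymphocytes to lymph nodes, differed through tumour 3 only, with 24.4, 57.0 and 445 against 34.3, 16.1 and 57.6.

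Plasma cell genes did not follow one pattern. Their median log2 fold change was 1.03 with tumour 3 and -0.93 without it. Of 10 members kept, 6 were higher in miR-142-5p tumours and 6 were highest in tumour 3, while 0 were higher without that tumour. Jchain had 37.9, 38.3 and 2492 normalised reads against 71.2, 120 and 56.6, and Ighg1 10.4, 9.31 and 5824 against 6.79, 11.6 and 41.0. Without tumour 1 of the miR-142-5p group, Ighg1 passed at a log2 fold change of 7.20 (adjusted p = 0.00795 by DESeq2). Igha, the constant gene of immunoglobulin A, was lower in every miR-142-5p tumour, at 77.3, 88.0 and 38.4 normalised reads against 169, 322 and 97.2 (log2 fold change -1.53, SE 0.53, adjusted p = 0.894). Prdm1, which drives plasma cell differentiation and also acts in T cells and macrophages, was lower as well, at 479, 281 and 315 against 487, 791 and 528. Among the settings tried Prdm1 passed only without tumour 1 of the miR-142-5p group, with a log2 fold change of -1.01 (adjusted p = 0.0042 by DESeq2). Its value was -0.50 without miR-222-3p tumour 2.

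**Figure D3:**
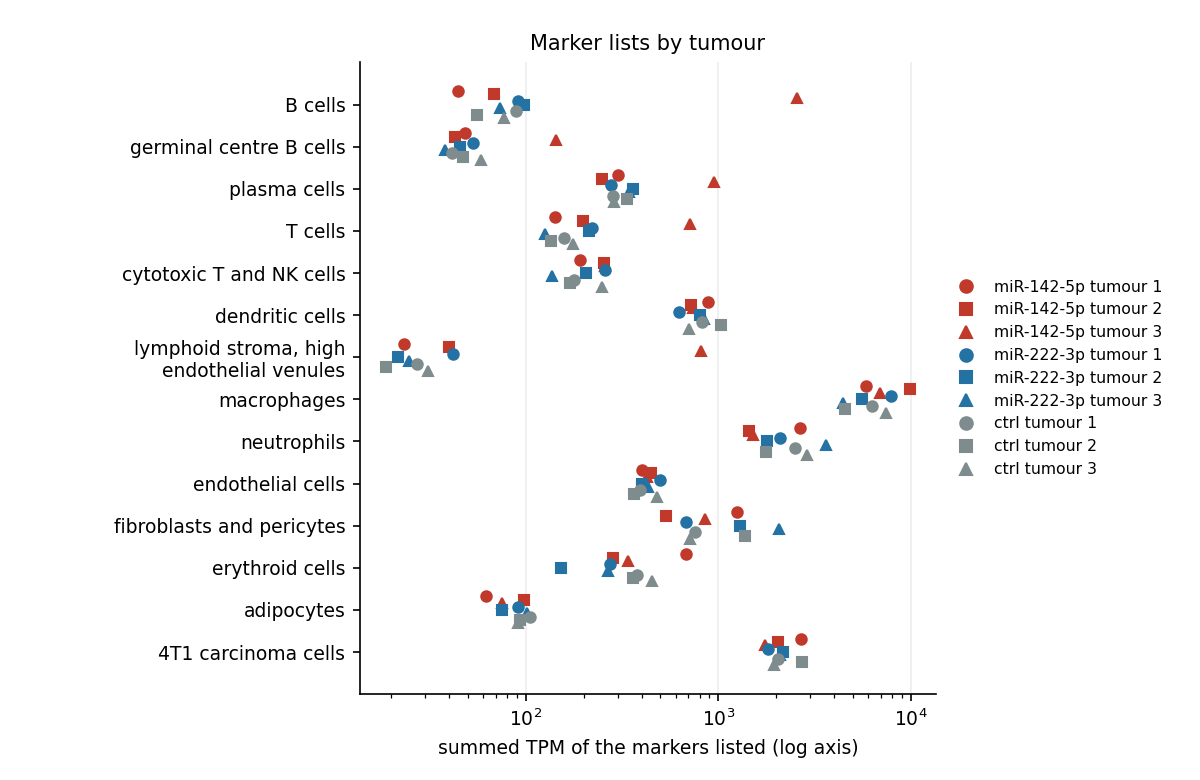
Summed TPM (horizontal log axis) of 14 lists of cell type markers in each tumour of the miR-142-5p, miR-222-3p and ctrl groups, 1 symbol per tumour. miR-142-5p tumour 3 lies to the right of all other tumours for B cells (2558 TPM), plasma cells, T cells and lymphoid stroma (818 TPM), and within the range of the others for macrophages and endothelial cells. Its carcinoma cell markers were the lowest, at 1755 TPM.

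The markers of 4T1 carcinoma cells, among them keratins and claudins, were present at 1755 to 2698 TPM in miR-142-5p tumours and at 1823 to 2173 TPM in miR-222-3p tumours, so all 6 libraries matched the labelled tissue. Endothelial markers summed to 403 to 446 TPM against 399 to 499. Macrophage markers summed to 5862, 9897 and 6963 TPM against 7908, 5554 and 4426, with the highest value in a miR-142-5p tumour and overlapping groups.

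Erythroid genes had higher levels in miR-142-5p tumours, with a median log2 fold change of 0.95 and of 1.16 without tumour 3. All 6 members kept were higher, 5 of 6 had an unadjusted p under 0.05 against 2.17% of all genes, and in 3 of 6 the groups did not overlap against 2.9% of all genes. None passed after adjustment. Alas2, the erythroid enzyme that starts haem synthesis, had 49.9, 40.5 and 45.4 normalised reads against 23.1, 17.0 and 11.5, a log2 fold change of 1.43 (SE 0.42, unadjusted p = 0.000739, adjusted p = 0.599). The minor β-globin gene Hbb-bt had 133, 48.9 and 63.4 against 40.04, 31.2 and 39.2 (1.15, SE 0.36, adjusted p = 0.722). Hbb-bs, the most abundant globin here, had 3114, 1060 and 1317 against 1035, 600 and 1109, and its groups overlapped by the lowest miR-142-5p tumour.

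Against ctrl tumours both groups lay apart in unequal measure for these genes. The list median was 0.18 for miR-142-5p over ctrl and -0.78 for miR-222-3p over ctrl, 2 values that share the ctrl tumours. The highest globin values were those of miR-142-5p tumour 1, and without that tumour the list median was 0.50, with 1.20 as the highest median when 1 of the 6 tumours was left out. Of the 10 listed erythroid genes, the anion exchanger gene Slc4a1 and the transcription factor gene Klf1 were among those below the count filter, with at most 7 estimated reads in any of the 6 tumours.

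Genes of collagens, matrix and fibroblasts lay on the other side. Of 28 collagen and matrix genes 25 were lower in miR-142-5p tumours, with a median log2 fold change of -0.50 against 0.0042 for all genes, but in 0 of 28 did the groups separate and 0 had an unadjusted p under 0.05. Col1a1, the chain of the main fibrillar collagen, had 23905, 6383 and 9591 normalised reads in miR-142-5p tumours and 7502, 22055 and 42067 in miR-222-3p tumours. The spread within a group was thus as wide as the difference between groups (log2 fold change -0.84, SE 0.66, adjusted p = 0.9999). Sparc, a collagen-binding matrix protein, had 29267, 18009 and 18871 against 20619, 28314 and 39113. The list median ranged from -0.80 without miR-222-3p tumour 1 to -0.09 without miR-222-3p tumour 3, the tumour with the most Col1a1. Col12a1, a collagen that coats fibrils, passed only without miR-142-5p tumour 1, at a log2 fold change of -1.51 (adjusted p = 0.00443 by DESeq2). It was -0.89 with all tumours and -0.49 without miR-222-3p tumour 3. The matricellular genes Ccn1 and Ccn2, chosen after their values were seen, passed as well without miR-142-5p tumour 1, at -1.08 (adjusted p = 0.0186) and -1.14 (adjusted p = 0.00195). Their values were -0.64 and -0.39 with all tumours and -0.42 and -0.07 without miR-222-3p tumour 3.

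Fibroblast and pericyte markers had a median of -0.34 with tumour 3 and -0.40 without, and 12 of 16 were lower. The median ranged from -0.66 without miR-222-3p tumour 1 to -0.08 without miR-222-3p tumour 3. Pdgfrb, the receptor that marks pericytes and fibroblasts, had 1064, 753 and 1152 normalised reads against 905, 1673 and 2071 (-0.65, SE 0.27, unadjusted p = 0.0175). Gas1, a growth arrest gene of stromal cells that also serves as a hedgehog co-receptor, had 110, 86.1 and 132 against 134, 338 and 515. Its groups did not overlap, and its log2 fold change was -1.59 (SE 0.43, adjusted p = 0.338). Without miR-222-3p tumour 1, the lowest of its group, Gas1 passed at -1.96 (adjusted p = 0.00129 by DESeq2). Its value was -1.10 without miR-222-3p tumour 3.

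Among the matrix metalloproteinases and their inhibitors 14 of 17 were lower in miR-142-5p tumours, with a median of -0.20. The stromelysin gene Mmp3 had 2429, 1581 and 2064 normalised reads against 2235, 4530 and 4842, a log2 fold change of -0.93 (SE 0.28, unadjusted p = 0.000743, adjusted p = 0.599). It also passed without miR-222-3p tumour 1, at -1.21 (adjusted p = 0.00129), the one tumour of that group within the miR-142-5p range. Without miR-222-3p tumour 3 the value of Mmp3 was -0.74. The collagenase gene Mmp13 had 5175, 3153 and 4311 against 5045, 7287 and 7013 (-0.61, SE 0.25, unadjusted p = 0.0123). Both genes were lower than ctrl in miR-142-5p tumours and higher than ctrl in miR-222-3p tumours, with log2 values of -0.49 and 0.44 for Mmp3.

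**Figure D4:**
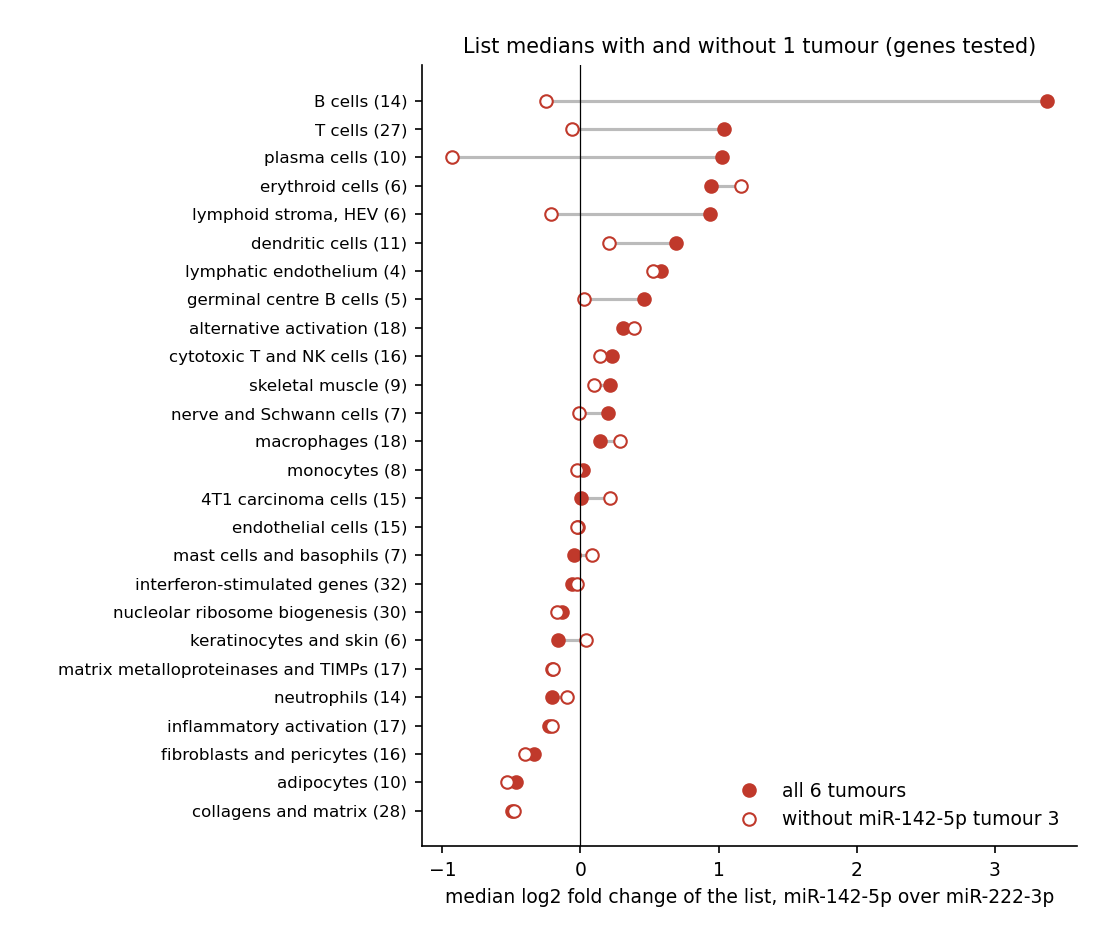
Median log2 fold change (miR-142-5p over miR-222-3p, horizontal axis) of each cell type list and 6 pathway lists, with the number of genes kept in parentheses. Filled circles are medians with all 6 tumours and open circles those without miR-142-5p tumour 3. The B cell median goes from 3.38 to -0.25 and the T cell median from 1.04 to -0.06, while those of erythroid cells (0.95 and 1.16) and of collagens and matrix (-0.50 and -0.48) stay on one side of 0. HEV stands for high endothelial venules.

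The protein-coding gene nearest to the threshold on the lower side was Ttc23, whose product belongs to the base of the primary cilium. It had 277, 268 and 253 normalised reads in miR-142-5p tumours and 415, 401 and 360 in miR-222-3p tumours, with means of 266 ± 11.8 and 391.6 ± 28.5 (SD, n = 3 each). The tumours of each group lay close together and the groups did not overlap. The log2 fold change was -0.56 (SE 0.14, adjusted p = 0.0990 by DESeq2), and it stayed between -0.62 and -0.51 when single tumours were left out. Evc, which encodes another protein of the ciliary base that takes part in hedgehog signalling, had 369, 403 and 384 against 505, 566 and 564 (-0.50, SE 0.15, adjusted p = 0.599).

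Genes of nucleolar ribosome biogenesis were mostly at slightly lower levels in miR-142-5p tumours. Of 30 genes kept, 26 were lower, with a median log2 fold change of -0.13 with tumour 3 and -0.17 without, and in 3 of 30 every miR-142-5p tumour was below every miR-222-3p tumour, against 3.29% of all genes. Those 3 had an unadjusted p under 0.05 (1.42% of all genes in this direction). Mdn1 was 1 of them, and the list was chosen with earlier results of these data known, so these shares are description only. Mdn1, a giant AAA ATPase that strips assembly factors from the pre-60S ribosome, had 843, 826 and 988 normalised reads against 1096, 1236 and 1230 (-0.42, SE 0.12, adjusted p = 0.563). Wdr12, a subunit of the PeBoW complex in the same pathway, had 693, 816 and 874 against 1113, 1004 and 973 (-0.37, SE 0.14). The abundant nucleolar genes Npm1 and Ncl, however, had log2 fold changes of 0.01 and -0.01. For Mdn1 the value was -0.59 for miR-142-5p over ctrl, which passed (adjusted p = 0.0169 by DESeq2), and -0.17 for miR-222-3p over ctrl, which did not.

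The other genes that separated the groups on the lower side without passing were of mixed function. Dctd, a deaminase that supplies dUMP, had 462, 406 and 427 normalised reads against 536, 747 and 602. Sos2, a guanine nucleotide exchange factor for Ras, had 1782, 2021 and 1891 against 2330, 2358 and 2594. For both, each miR-142-5p tumour was below each miR-222-3p tumour. The glycosyltransferase gene A4galt (-0.62), the chromatin gene Bend3 (-0.50), Nrep (-0.89) and Gm2237 (-0.57) were of like size, with unadjusted p-values between 0.00086 and 0.00189. The ribosomal protein gene Rps12 had 1336, 1091 and 1134 against 1914, 1770 and 2695, a log2 fold change of -0.84 (SE 0.27, adjusted p = 0.722), and passed in the fit of the 6 libraries alone (adjusted p = 0.0237). Other ribosomal protein genes did not share this, since the list of 40 had a median of 0.04.

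On the upper side, 5 of the 6 protein-coding genes named by the same rule were highest in tumour 3. Klhl6, an adaptor of a ubiquitin ligase used in B cells, had 332, 425 and 1393 normalised reads against 309, 277 and 241, and its log2 fold change was 1.38 with that tumour and 0.46 without. The haematopoietic myosin gene Myo1g went from 1.002 to 0.43, the GTPase regulator gene Arhgap45 from 0.79 to 0.30 and the small GTPase gene Rhof from 0.97 to 0.48. Sipa1, a Rap GTPase activator of leukocytes, was less dependent on it, with 1257, 1630 and 1752 against 1166, 1125 and 1040 (0.48, and 0.38 without). Each of these 5 genes passed when tumour 1 of the miR-142-5p group was left out, with adjusted p-values between 0.00474 for Klhl6 and 0.0411 for Rhof, and Myo1g also without tumour 2 (adjusted p = 0.0435). Slc30a1, the zinc exporter of the plasma membrane, did not depend on it: 223, 231 and 226 stood against 184, 133 and 146, with a log2 fold change of 0.55 (SE 0.18, adjusted p = 0.737) that was 0.55 without tumour 3. Slc1a3, a glutamate transporter that was nearest to the threshold on this side and was chosen after its values were seen, had 4.84, 17.4 and 54.2 normalised reads against 3.45, 1.74 and 1.98 (3.58, SE 0.88, adjusted p = 0.0990, and 2.42 without tumour 3), and passed without tumour 1 of the same group (adjusted p = 0.0042). For Slc30a1 the ctrl tumours had 198 to 236, so the miR-222-3p tumours were the lower group.

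**Figure D5:**
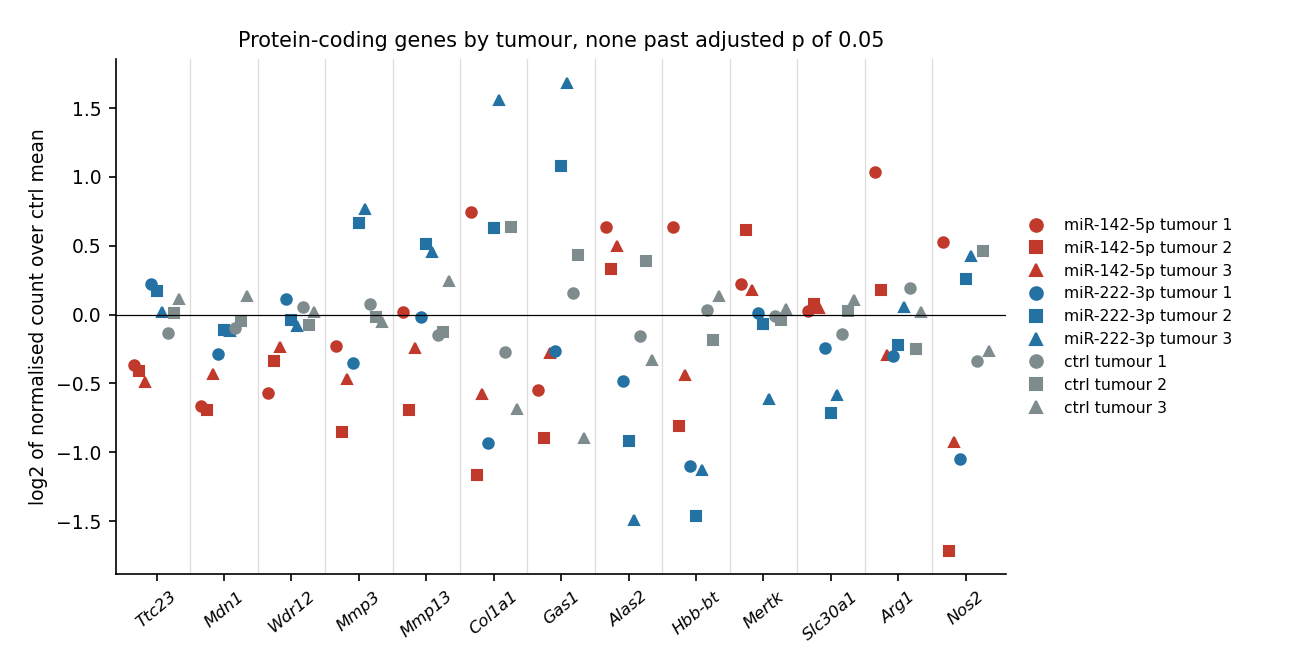
Log2 ratio of the normalised read count in each tumour to the mean of the ctrl tumours (vertical axis) for the protein-coding genes named on the horizontal axis, 1 symbol per tumour, with the line at 0 marking the ctrl mean. Ttc23, Mdn1 and Wdr12 lie lower in all miR-142-5p tumours than in all miR-222-3p tumours and Alas2, Hbb-bt, Mertk and Slc30a1 higher, while Col1a1, Arg1 and Nos2 overlap.

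The study concerned the state of tumour-associated macrophages, and genes of both macrophage states were compared. Of 18 macrophage markers 15 were higher in miR-142-5p tumours with tumour 3 and 17 without, with medians of 0.14 and 0.29. The median was 0.01 without miR-142-5p tumour 2, the tumour with the highest summed level of these markers. Mertk, a receptor for the uptake of dead cells, had 409, 538 and 397 normalised reads against 354, 335 and 230, groups that did not overlap (0.55, SE 0.19, unadjusted p = 0.00474, adjusted p = 0.912). Apoe, the lipid carrier made in quantity by tissue macrophages, had 26766, 48533 and 25404 against 30180, 19947 and 16801, and Lyz2, lysozyme of myeloid cells, 25587, 47997 and 40573 against 40627, 24532 and 22847. The groups overlapped for both, with tumour 2 the highest miR-142-5p tumour.

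Arg1, the arginase of alternatively activated macrophages, had 15793, 8715 and 6287 normalised reads in miR-142-5p tumours and 6262, 6626 and 7995 in miR-222-3p tumours. The log2 fold change of 0.56 (SE 0.27, unadjusted p = 0.0374, adjusted p = 0.9999) rested on the first of these tumours and was 0.11 without it and 0.81 without tumour 3. Nos2, the inducible nitric oxide synthase that competes for the same substrate, had 2954, 623 and 1078 against 990, 2442 and 2747 (-0.41, SE 0.58). Its value ranged from -1.28 without miR-142-5p tumour 1 to -0.03 without miR-142-5p tumour 2. Il1b had 4367, 2513 and 2807 against 3633, 4378 and 3937 (-0.30, SE 0.24). Tgfb1, the immunosuppressive growth factor gene, was closest to equal at 2180, 2256 and 1876 against 1990, 2405 and 2386 (-0.10, SE 0.15).

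The list of alternative activation had a median of 0.31, with 14 of 18 genes higher, and 3 of them had an unadjusted p under 0.05, namely Arg1, Il4ra and Ccl22, against 2.17% of all genes in this direction. The median ranged from 0.15 without miR-222-3p tumour 2 to 0.48 without miR-222-3p tumour 1. Il4ra, a chain of the interleukin-4 receptor, had 4032, 3633 and 4149 normalised reads against 3305, 3339 and 3647 (0.20, SE 0.09, unadjusted p = 0.0349). Ccl22, a chemokine for regulatory T cells, was high in tumour 3 alone, with 58.7, 106 and 701 against 74.2, 28.2 and 81.1. The list of inflammatory activation had a median of -0.23, with 6 of 17 higher. Saa3, an acute phase gene of macrophages, was lower in each miR-142-5p tumour, at 186, 240 and 117 against 247, 285 and 800 (-1.30, SE 0.59, and -0.56 without miR-222-3p tumour 3). The lists of M1, M2 and tumour-associated macrophage genes taken from the study had medians of 0.015, 0.027 and 0.0053 over 47, 36 and 112 genes, near the 0.0042 of all genes, and no member passed with all tumours. Without miR-142-5p tumour 1, the members that passed numbered 1, 0 and 2. They were Ccr7 (2.80, adjusted p = 0.0326 by DESeq2), Tmem119 (-1.43, adjusted p = 0.0224) and Arhgap22 (0.42, adjusted p = 0.0387).

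Of the remaining lists, no member passed after adjustment in any with all tumours, and the medians of interferon-stimulated genes (-0.06 over 32), cell cycle genes (0.02 over 40), glycolysis and hypoxia genes (0.006 over 36) and the nuclear genes of oxidative phosphorylation (-0.007 over 39) were small. These medians depended on single tumours. With 1 tumour left out they ranged from -0.15 to 0.10, -0.10 to 0.19, -0.22 to 0.09 and -0.09 to 0.06 in that order. Without miR-142-5p tumour 1, 4 of 36 glycolysis and hypoxia genes and 6 of 39 nuclear genes of oxidative phosphorylation were higher in miR-142-5p tumours. Single genes stood out within some of them. Ccl28, a mucosal chemokine, had 2.89, 3.89 and 3.21 normalised reads against 12.9, 12.9 and 15.8, low counts whose groups did not overlap (unadjusted p = 0.00237, adjusted p = 0.753). Slc7a11, the cystine transporter that feeds glutathione synthesis, had 793, 923 and 910 against 1317, 1482 and 1165 (-0.59, SE 0.29). Srm, the spermidine synthase gene, had 956, 881 and 1002 against 1005, 1394 and 1528 (-0.47, SE 0.19). The complement regulator gene Cd55 had 76.3, 193 and 218 against 87.9, 18.4 and 34.6 (1.79, SE 0.61, adjusted p = 0.822). It passed without miR-222-3p tumour 1 at 2.61 (adjusted p = 0.0441 by DESeq2), and its value was 1.41 without miR-222-3p tumour 2. All 10 adipocyte markers kept were lower in miR-142-5p tumours, with a median of -0.47, and 2 of them were higher without tumour 3. Pparg, the adipogenic nuclear receptor, had 16.1, 19.8 and 9.69 against 74.99, 17.3 and 23.5.

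Messengers with a seed match to the one or the other microRNA were then compared, to ask whether either set lay lower in the group given its microRNA. In 14627 protein-coding genes the 3′ UTR of the most abundant transcript was searched on its own strand, and 14.2% of UTRs held the miR-142-5p string and 9.5% the miR-222-3p string. The median log2 fold change was 0.0028 for 1649 genes with a match to miR-142-5p only, 0.0132 for 964 genes with a match to miR-222-3p only, -0.0139 for 426 genes with both and 0.0035 for 11588 genes with neither. When single tumours were left out these medians changed sign, between -0.0248 and 0.0542 for miR-142-5p only and between -0.0213 and 0.0484 for miR-222-3p only. The middle 50% of the genes ran from -0.10 to 0.12 for miR-142-5p only and from -0.10 to 0.12 for miR-222-3p only, against -0.11 to 0.12 for neither. The sets are of unequal UTR length, which was not adjusted for, and a match is a string and not a shown site.

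Sites in genes reported elsewhere as targets are shown because they are where pairing with the delivered seeds could take place. The match, an 8mer that holds the string and a final A, is in capitals, with coordinates in GRCm38 for the stretch shown. The stretch of Nfe2l2 lies at chr2:75675860-75675889 (minus), that of Cdkn1b at chr6:134924420-134924449 (plus) and that of Kit at chr5:75654981-75655010 (plus), all in the 3′ UTR.
Nfe2l2, miR-142-5p: aatgcagaaacACTTTATAagtaactatgc
Cdkn1b, miR-222-3p: aaaagcattggATGTAGCAttgcgcaatta
Kit, miR-222-3p: atgggagatatATGTAGCAagactagaaaa
Nfe2l2, the regulator of antioxidant genes, had 3861, 4268 and 3518 normalised reads in miR-142-5p tumours and 4153, 3884 and 3686 in miR-222-3p tumours (-0.01, SE 0.12).

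The targets of the other microRNA were as close. Cdkn1b, the cyclin-dependent kinase inhibitor p27, had 3182, 3013 and 3102 normalised reads in miR-142-5p tumours and 3450, 3356 and 2973 in miR-222-3p tumours (-0.07, SE 0.11). Kit, the stem cell factor receptor of mast cells, had 308, 511 and 483 against 706, 207 and 357, the widest spread of these genes (0.04, SE 0.43). Of 19 reported miR-142-5p targets 9 held a match to it and of 24 reported miR-222-3p targets with a UTR 11 held one. The medians of the lists were 0.05 and 0.02. The 1 member with an unadjusted p under 0.05 was Bach2, a transcription factor of lymphocytes, with 321, 241 and 798 against 260, 208 and 236, highest in tumour 3 (0.96, SE 0.38, and 0.26 without that tumour). Genes of PI3K and AKT signalling had a median of 0.06 over 28 genes. Of these Pik3cd, the leukocyte PI3 kinase subunit gene, had an unadjusted p under 0.05 (0.61, SE 0.22, and 0.29 without tumour 3), and it passed without miR-142-5p tumour 1, at 0.83 (adjusted p = 0.0133).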

How the data were processed

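Polyadenylated RNA of the tumours was sequenced from TruSeq Stranded libraries. The deposited tables hold, per transcript, the authors' Salmon values: expected counts (estimated reads), TPM and effective lengths, against GRCm38 per the labels and Ensembl cDNA and noncoding RNA per the study's methods. Estimates were summed per gene with the GENCODE M21 annotation (98.25% of transcripts matched; 0.64% to 0.67% of reads of the 6 libraries did not match), rounded, and genes reaching 10 reads in 3 or more of 12 libraries were kept. DESeq2 1.42.0 (R 4.3.3) was fitted to 12 libraries with group as the only term and mean effective length as offset. Normalised read counts are counts divided by the resulting factors, and p-values were adjusted by Benjamini-Hochberg. Alternatives used edgeR 4.0.16. Fits were tested on simulated data. Copies of pseudogenes were found with BLAST+ 2.17.0 as the transcript with most reads among those within 90% of the best score.

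Members and gene lists were chosen with earlier results of these data known. Named genes were the genes that passed (at most 12 per direction), filled with protein-coding genes of mean normalised count of at least 100 whose groups did not overlap, by lowest p; in each list, members that passed, the 2 of lowest p and the 2 of highest count; and Arg1, Nos2, Tgfb1 and Il1b, while some items that the rule names are not reported here. Other genes named, above all the lymphoid genes of miR-142-5p tumour 3, were chosen after their values were seen. Replicate libraries differed by 29.2 to 60.6 times the sampling noise (chi-square per degree of freedom), so none was counted as a duplicate.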

Additional observations from a re-analysis of the deposited data

How the results depend on the processing

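The number of genes past the threshold was 6 and was the same with TMM factors in DESeq2, without the length offset and with a log2 fold change of at least 1. It was 4 without the count filter and 8 at an adjusted p under 0.1. It was 0 in edgeR (522 at an unadjusted p under 0.05), 0 with at least 50 reads in every library (347), 0 among protein-coding genes only (510), 0 with 5 pseudogenes summed with their copies (549) and 0 with all 6 and Gm28661 summed (547), the last chosen after seeing the data. A fit of the 6 libraries alone gave 15, and 14 when miR-142-5p replicate 3 was also left out, which was chosen after seeing the data. Leaving out single libraries gave 2 to 72 genes. The cause of these shifts was not tested, except that the pseudogenes cannot pass where the construction removes them.

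With the replicate number as a block, 5 genes passed, 4 of them among the 6. The deviations of same-numbered samples correlated at -0.678, -0.355 and -0.314, so the numbers are not taken to pair the samples. Of 884 list medians recomputed, 853 stayed within 1 SD of the spread between replicates, and those that did not came from 14 lists. Of 1389 recomputed values of 85 of the genes named, 1331 kept their side of the threshold, 29 lost the call and 29 gained it. The medians of the genes with seed matches moved by less than that SD with 8mer sites only, with the longest UTR and with each library left out, although their signs changed between libraries left out. Each group had 3 tumours, and miR-142-5p tumour 3 stands apart in lymphoid genes. Over all genes together, replicate libraries differed by far more than sampling noise (29.2 to 60.6 times). The part of the error that comes from counting was not separated gene by gene, so it is not known for genes with few reads, such as Ccl28.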
